A study of Mus musculus with 9 samples.

Results

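The store-operated calcium entry and IP3 receptor genes were described as a set of 8 genes given by name, Orai1, Orai2, Orai3, Stim1, Stim2, Itpr1, Itpr2 and Itpr3, out of 55573 gene identifiers counted in each library. All 8 were among the 13328 genes with enough counts to be tested. RNA had been sequenced from splenic CD4+ T cells of B6 mice in 3 groups of 3 libraries. One group was activated with anti-CD3 and anti-CD28, antibodies that engage the T cell receptor complex and a costimulatory receptor, in an incubator at 39 °C for 3 hours. Another received the same activation for 3 hours at 37 °C, and the naive group was not activated. The sources differ on the cells in the wells, since the protocol names spleen cells in coated plates and the design text names isolated CD4+ T cells. They do not state whether naive cells spent time in medium, and no mutation or drug is named for any group. Separate mice or cultures are not named as the origin of the libraries, so the p-values rest on library-to-library spread alone, which may be technical.

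When a T cell receptor is engaged, phospholipase C gamma 1 produces inositol 1,4,5-trisphosphate (IP3), which opens IP3 receptors in the endoplasmic reticulum and releases stored calcium. STIM proteins sense the fall of calcium in the store and open ORAI channels in the plasma membrane. The calcium that enters activates calcineurin and, through it, NFAT transcription factors. ORAI1 forms the pore of the calcium release-activated calcium channel, ORAI2 and ORAI3 are its relatives, and STIM1 and STIM2 differ in their sensitivity to store calcium.

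In brief, activated cells held about 4 times the naive level of Orai1 mRNA and less Orai2, so that Orai1 took the place of Orai2 as the most abundant ORAI transcript per kilobase. Stim2 rose and Stim1 fell. All 3 IP3 receptor genes were called lower at 39 °C than in naive cells, and Itpr2 and Itpr3 at 37 °C as well. For Itpr3 at 37 °C the libraries overlapped with naive ones, and the call was lost in 7 of 18 alternative fits. Itpr1 at 39 °C also overlapped with naive, and its call was lost in 1 of 18. None of the 8 genes passed the test between 39 °C and 37 °C.

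Library totals ranged from 12647692 to 17605549 counts, and a member had at least 186 counts in every library. Levels are in CPM (counts per library size, with TMM factors, as edgeR computes them), ± gives the SD over 3 libraries beside a level and the standard error of the edgeR fit beside a log2 fold change, and a gene was called where the edgeR quasi-likelihood test gave a Benjamini-Hochberg adjusted p under 0.05. CD4 T cell markers summed to between 4461 and 4705 CPM at 39 °C, between 4274 and 4446 CPM at 37 °C and between 4137 and 4802 CPM in naive libraries, and each of the 8 markers was detected. Of these 8 markers 1 rose and 3 fell at 39 °C against naive, 2 rose and 4 fell at 37 °C against naive, and 1 rose at 39 °C against 37 °C. All 6 activation markers rose in both activated groups. Of 11 B cell markers 9 fell and 1 rose in both, with sums of 296 to 308 CPM at 39 °C, 270.3 to 282 CPM at 37 °C and 774 to 923 CPM in naive libraries. The 5 erythroid markers summed to 1.18 to 2.30 CPM at 39 °C, 1.5 to 1.65 CPM at 37 °C and 59.4 to 88.5 CPM in naive libraries. The sums were 12.6 to 14.6, 13.5 to 15.1 and 25.8 to 36.1 CPM for 2 CD8 T cell markers, 6.54 to 9.70, 10.1 to 11.4 and 15.6 to 18.1 CPM for 5 NK cell markers and 7.79 to 10.8, 8.31 to 9.86 and 14.7 to 19.3 CPM for 8 myeloid markers, at 39 °C, at 37 °C and in naive libraries in that order. Neutrophil markers (4 genes) summed to at most 0.125 CPM at 39 °C and at most 0.0714 CPM at 37 °C, and to 1.18 to 3.23 CPM in naive libraries. The 5 platelet markers summed to 5.71 to 6.60 CPM at 39 °C, 6.07 to 6.83 CPM at 37 °C and 6.12 to 7.72 CPM in naive libraries, with the defining markers Pf4 and Gp1bb at 0 counts throughout. B cells and other blood cells also express members of these gene families, and the part of these cell type differences in the results below was not tested.

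The promoters of the ORAI and STIM genes that moved in opposite directions are shown first, for the contrast of Orai1 with Orai2 and of Stim2 with Stim1. Any part of these promoters in the levels was not tested. Each runs 5′ to 3′ on the strand of its gene, from 250 bases before to 50 bases into the transcript, as RefSeq gives it on GRCm38.p6. The places are chr5:123014824-123015123 on the plus strand for Orai1, chr5:136170607-136170906 on the minus strand for Orai2, chr7:102267569-102267868 on the plus strand for Stim1 and chr5:53998273-53998572 on the plus strand for Stim2. Capitals mark every match, on either strand, to the 8 motifs spelled out after the sequences.
Orai1: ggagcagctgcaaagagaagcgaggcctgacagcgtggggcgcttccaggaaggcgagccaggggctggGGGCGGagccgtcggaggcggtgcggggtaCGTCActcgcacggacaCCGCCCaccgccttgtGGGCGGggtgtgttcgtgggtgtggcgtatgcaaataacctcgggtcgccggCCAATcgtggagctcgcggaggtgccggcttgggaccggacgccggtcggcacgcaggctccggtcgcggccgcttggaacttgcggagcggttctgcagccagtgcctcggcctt
Orai2: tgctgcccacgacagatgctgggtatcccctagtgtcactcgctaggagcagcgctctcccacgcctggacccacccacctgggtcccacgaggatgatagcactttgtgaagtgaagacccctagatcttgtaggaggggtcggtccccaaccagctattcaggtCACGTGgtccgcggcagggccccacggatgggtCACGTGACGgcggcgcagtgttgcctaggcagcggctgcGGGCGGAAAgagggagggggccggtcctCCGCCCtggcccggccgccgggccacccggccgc
Stim1: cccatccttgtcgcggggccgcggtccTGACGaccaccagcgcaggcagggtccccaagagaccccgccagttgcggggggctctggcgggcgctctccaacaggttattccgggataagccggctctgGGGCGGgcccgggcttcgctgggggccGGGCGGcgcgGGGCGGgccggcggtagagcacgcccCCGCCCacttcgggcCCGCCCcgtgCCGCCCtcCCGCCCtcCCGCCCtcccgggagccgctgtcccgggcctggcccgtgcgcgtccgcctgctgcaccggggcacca
Stim2: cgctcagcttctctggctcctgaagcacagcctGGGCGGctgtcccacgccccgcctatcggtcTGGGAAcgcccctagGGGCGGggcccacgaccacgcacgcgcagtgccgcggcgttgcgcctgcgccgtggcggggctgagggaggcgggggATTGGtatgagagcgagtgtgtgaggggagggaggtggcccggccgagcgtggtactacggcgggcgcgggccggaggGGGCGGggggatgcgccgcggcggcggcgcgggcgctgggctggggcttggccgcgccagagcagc

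The motifs searched were the NFAT core GGAAA, the AP-1 site TGANTCA, the cyclic AMP response element core TGACG, the E-box CACGTG, the GC box GGGCGG, the CCAAT box CCAAT, the RBP-J core TGGGAA and the heat shock element GAANNTTC. The Orai1 promoter held 3 GC boxes, 1 CCAAT box and 1 TGACG core. The Orai2 promoter held 2 E-boxes, one of which overlaps its 1 TGACG core, and 2 GC boxes, one of which overlaps its 1 NFAT core. The Stim1 promoter held 8 GC boxes and 1 TGACG core, and the Stim2 promoter held 3 GC boxes, 1 CCAAT box and 1 RBP-J core. Among 32851 mouse promoters of the same length, 61.3% held GGAAA, 7.81% the AP-1 site, 20.8% TGACG, 7.15% the E-box, 35.7% the GC box, 37.4% the CCAAT box, 25.6% TGGGAA and 7.86% the heat shock element. The AP-1 site and the heat shock element had no match in the 4 windows, which says only that these letters are not there. GC content was 70.3% for Orai1, 68.0% for Orai2, 78.7% for Stim1 and 76.7% for Stim2, and the median over all promoters was 52.7%. A match is a run of letters and not evidence of binding.

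Orai1 (ENSMUSG00000049686), the pore gene, spans chr5 123015074 to 123030456 in GRCm38 on the plus strand. It had 284, 269 and 247 CPM at 39 °C, 245, 227 and 239 CPM at 37 °C and 71.5, 48.1 and 59.9 CPM in naive libraries. Every activated library lay above every naive one, by a wide margin. The log2 fold change was 2.16 ± 0.12 for 39 °C against naive (adjusted p = 2.28e-08), a 4.46-fold rise, and 1.99 ± 0.12 for 37 °C against naive (adjusted p = 3.94e-08), a 3.96-fold rise. A larger absolute fold change was found in 533 genes, 4.0% of those tested, at 39 °C and in 724 genes, 5.43%, at 37 °C. Because these are bulk samples, a difference in the number of cells of a type and a difference in RNA per cell cannot be told apart, here and below.

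Orai2 (ENSMUSG00000039747), on the minus strand of chr5 at 136147459 to 136170713, encodes a channel subunit that can join ORAI1 and lower the current in mouse T cells. It moved the other way. Its levels were 165, 169.8 and 168 CPM at 39 °C, 148, 148 and 138 CPM at 37 °C and 262, 299.6 and 302 CPM in naive libraries, so that the highest activated library stayed below the lowest naive one. Orai2 fell by 0.78 ± 0.07 on the log2 scale at 39 °C against naive (adjusted p = 1.77e-06), and by 0.99 ± 0.07 at 37 °C against naive (adjusted p = 2.15e-07), which are 1.72-fold and 1.98-fold.

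Orai3 (ENSMUSG00000043964; chr7 127769815 to 127775150, plus strand), the least counted member, encodes the remaining ORAI subunit. It had 19.5, 17.4 and 15.3 CPM at 39 °C, 16.8, 19.9 and 14.4 CPM at 37 °C and 26.7, 18.6 and 22.5 CPM in naive libraries. The activated and naive ranges overlapped. The log2 fold changes of -0.38 ± 0.15 at 39 °C (adjusted p = 0.0485) and -0.40 ± 0.15 at 37 °C (adjusted p = 0.0348) against naive passed the test narrowly. For 39 °C against naive the call was lost without 39 °C library 2 (-0.37) or 3 (-0.29), 37 °C library 1 (-0.37) or naive library 1 (-0.24) or 3 (-0.38). For 37 °C against naive it was lost without 39 °C library 2 (-0.40), 37 °C library 1 (-0.39) or 3 (-0.30) or naive library 1 (-0.27) or 3 (-0.41).

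**Figure D1:**
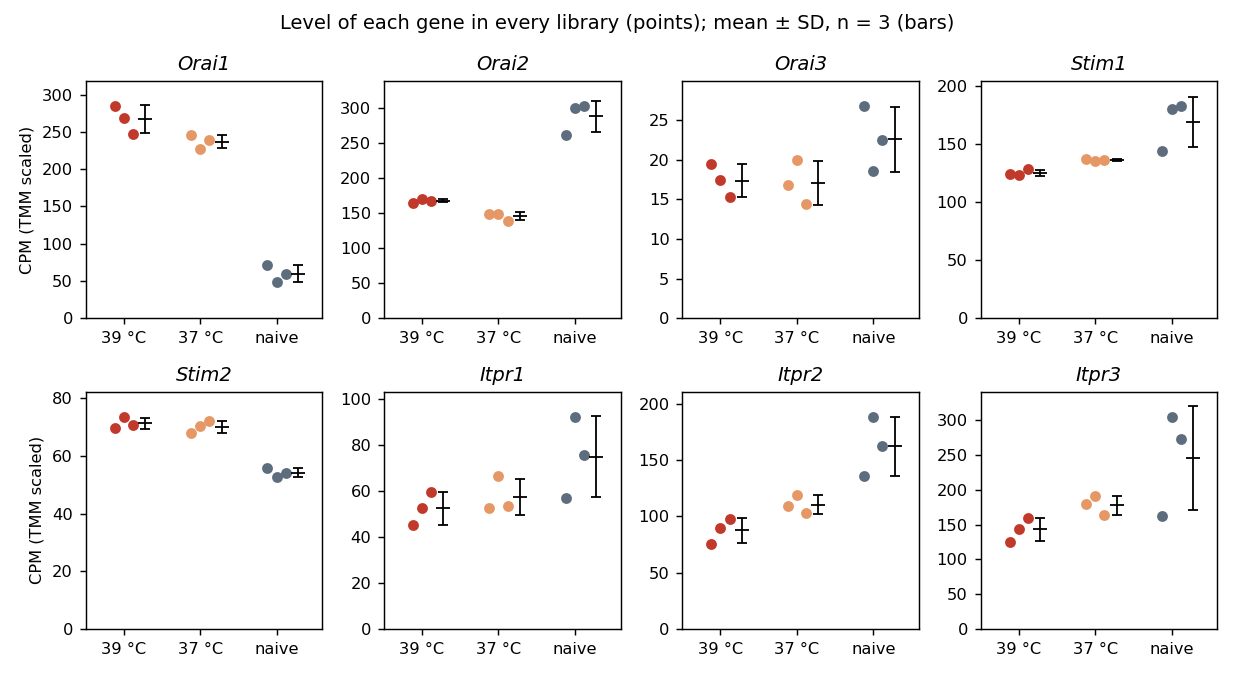
Level in CPM (vertical axis, from 0, scaled for each gene) of the 8 genes in every library (points), with mean ± SD of 3 libraries (bars), for 39 °C, 37 °C and naive. Orai1 averaged 267 CPM at 39 °C, 237 CPM at 37 °C and 59.8 CPM in naive libraries, and naive library 1 lay lowest of its group for Itpr3, at 162 CPM.

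Dividing CPM by the length of the annotated exons, joined over all transcripts of a gene, puts members on a scale on which they can be compared with each other. On that scale Orai1 made up 76.5 ± 0.868% of the ORAI transcripts at 39 °C, 76.4 ± 1.67% at 37 °C and 30.9 ± 4.73% in naive libraries. Orai2 made up 18.2 ± 1.21% at 39 °C, 17.7 ± 0.671% at 37 °C and 56.6 ± 6.46% in naive libraries. The share of Orai3 was 5.33 ± 0.344% at 39 °C, 5.90 ± 1.0% at 37 °C and 12.5 ± 1.73% in naive libraries. The naive make-up was thus led by Orai2 and the activated make-up by Orai1, and with the length of the longest transcript instead the Orai1 share was 73.9% at 39 °C, 74.0% at 37 °C and 27.8% in naive libraries. The 3 ORAI genes together summed to 152 ± 8.88 CPM per kilobase at 39 °C, 135 ± 3.44 at 37 °C and 84.0 ± 4.37 in naive libraries (SD, n = 3).

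The ratio of Orai1 to Orai2 per kilobase does not depend on scaling between libraries. It was 4.56, 4.2 and 3.90 at 39 °C, 4.38, 4.06 and 4.57 at 37 °C and 0.724, 0.425 and 0.525 in naive libraries. All 6 activated libraries held more Orai1 than Orai2 per kilobase, and all 3 naive libraries held less. The ratio was 7.74-fold higher at 39 °C and 7.95-fold higher at 37 °C than in naive libraries, each with a 2-sided exact permutation p of 0.1, the smallest that 3 against 3 libraries can give (0.171 adjusted over 12 such ratio tests). Between 39 °C and 37 °C the log2 ratio differed by -0.04 (exact p = 0.7, adjusted 0.873).

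Stim1 (ENSMUSG00000030987; chr7 102267806 to 102437319, plus strand), the main sensor of store calcium in T cells, had 124, 124 and 128 CPM at 39 °C, 137, 136 and 136 CPM at 37 °C and 144, 180.5 and 182 CPM in naive libraries. The 3 groups did not overlap, with 39 °C lowest and naive highest. Stim1 fell by 0.43 ± 0.09 on the log2 scale at 39 °C against naive (adjusted p = 0.000954) and by 0.31 ± 0.09 at 37 °C against naive (adjusted p = 0.00742).

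Stim2 (ENSMUSG00000039156; chr5 53998499 to 54121057, plus strand), the sensor that responds to smaller losses of store calcium, had 69.6, 73.5 and 70.9 CPM at 39 °C, 67.9, 70.6 and 72.1 CPM at 37 °C and 55.8, 52.7 and 54.2 CPM in naive libraries. Every activated library exceeded every naive one, and both activated groups covered much the same range. The log2 fold change was 0.40 ± 0.06 for 39 °C against naive (adjusted p = 0.000157) and 0.37 ± 0.06 for 37 °C against naive (adjusted p = 0.000236).

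The ratio of Stim1 to Stim2 per kilobase was 0.881, 0.833 and 0.894 at 39 °C, 1.0, 0.950 and 0.932 at 37 °C and 1.28, 1.69 and 1.66 in naive libraries. The groups did not overlap in this ratio either. The log2 ratio was lower by 0.82 at 39 °C than in naive libraries (a difference of -0.82), lower at 37 °C than in naive libraries (-0.67), and lower at 39 °C than at 37 °C (-0.15), each with an exact permutation p of 0.1 (0.171 adjusted). Which STIM gene leads depends on the length used, since the exons joined over transcripts cover 10371 bases for Stim1 and its longest transcript 4362. Stim1 held 46.5 ± 0.924% of the STIM transcripts at 39 °C, 49.0 ± 0.924% at 37 °C and 60.5 ± 3.82% in naive libraries by joined exons, and 66.5%, 68.7% and 77.7% in these groups by the longest transcript. The joint STIM level was 26.0 ± 0.407 CPM per kilobase at 39 °C, 26.8 ± 0.328 at 37 °C and 26.9 ± 1.86 in naive libraries by joined exons (SD, n = 3), and 43.2, 45.5 and 49.7 by the longest transcript.

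**Figure D2:**
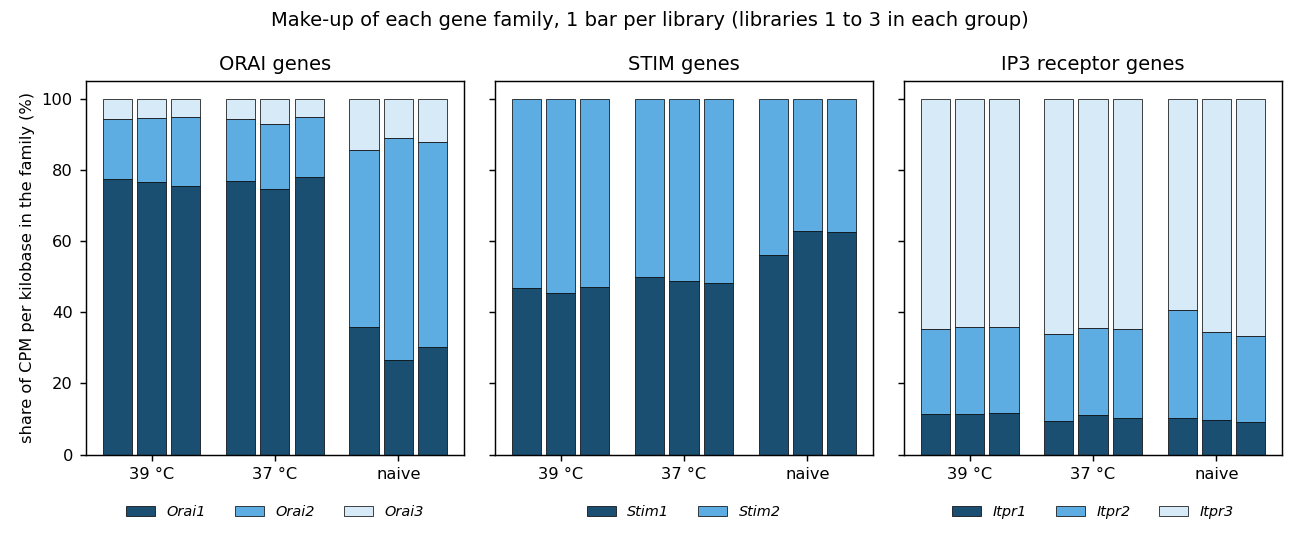
Share of each gene in the CPM per kilobase of its family (vertical axis, percent), 1 bar per library, for 39 °C, 37 °C and naive; lengths are annotated exons joined over transcripts. Orai1 took 75.6 to 77.4% of the ORAI bars at 39 °C, 74.6 to 77.9% at 37 °C and 26.5 to 35.9% in naive libraries, while Itpr3 was the largest IP3 receptor share in every library.

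Itpr1 (ENSMUSG00000030102; chr6 108213096 to 108551109, plus strand) encodes the type 1 IP3 receptor. Its levels were 45.2, 52.4 and 59.6 CPM at 39 °C, 52.5, 66.5 and 53.2 CPM at 37 °C and 56.9, 92.0 and 75.7 CPM in naive libraries. The lowest naive library lay within both activated ranges. At 39 °C against naive Itpr1 fell by 0.52 ± 0.16 on the log2 scale (adjusted p = 0.0152), but without 39 °C library 1 it did not pass (-0.43, adjusted p = 0.0612). At 37 °C against naive it was not called, with a log2 fold change of -0.38 ± 0.16, a 95% interval from -0.73 to -0.03 and an adjusted p of 0.0547. That comparison passed in 8 of 18 alternatives, among them DESeq2 (-0.39, adjusted p = 0.0364), upper-quartile scaling (-0.52, adjusted p = 0.0141) and the fits without 39 °C library 1 (-0.39), 37 °C library 2 (-0.50) or naive library 1 (-0.54).

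Itpr2 (ENSMUSG00000030287; chr6 146108299 to 146502223, minus strand), the type 2 receptor gene, had 75.6, 89.7 and 97.7 CPM at 39 °C, 109, 119 and 103 CPM at 37 °C and 135, 188 and 162 CPM in naive libraries. The 3 groups did not overlap. Itpr2 fell by 0.89 ± 0.12 on the log2 scale at 39 °C against naive (adjusted p = 5.50e-05) and by 0.55 ± 0.12 at 37 °C against naive (adjusted p = 0.00172).

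Itpr3 (ENSMUSG00000042644; chr17 27057304 to 27122223, plus strand), the type 3 receptor gene and the most abundant of these receptor transcripts per kilobase, had 126, 144 and 159.5 CPM at 39 °C, 179, 191 and 163 CPM at 37 °C and 162, 305 and 273 CPM in naive libraries. Naive library 1 lay below every 37 °C library, while the other two naive libraries lay above all activated ones. Itpr3 fell by 0.78 ± 0.18 on the log2 scale at 39 °C against naive (adjusted p = 0.00294) and by 0.47 ± 0.18 at 37 °C against naive (adjusted p = 0.0406). The call at 37 °C was lost without 39 °C library 2 (-0.47), 37 °C library 1 (-0.47), 2 (-0.52) or 3 (-0.41), or naive library 2 (-0.29) or 3 (-0.39). Without naive library 1 the log2 fold change was -1.01 at 39 °C and -0.70 at 37 °C.

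The mean shares of the IP3 receptor genes differed little between groups, apart from a higher ratio of Itpr1 to Itpr3 at 39 °C. Itpr3 held 64.4 ± 0.316% of the receptor transcripts per kilobase at 39 °C, 65.1 ± 0.812% at 37 °C and 63.9 ± 3.92% in naive libraries. Itpr2 held 24.0 ± 0.278% at 39 °C, 24.6 ± 0.222% at 37 °C and 26.4 ± 3.39% in naive libraries, and Itpr1 11.6 ± 0.198%, 10.3 ± 0.779% and 9.72 ± 0.588% in these groups. Naive library 1 stood apart from its group, with 59.4% for Itpr3 and 30.3% for Itpr2. Naive libraries 2 and 3 had 65.6% and 66.7% for Itpr3 and 24.7% and 24.2% for Itpr2. With the longest transcript as the length, Itpr3 held 55.4%, 56.5% and 55.5% at 39 °C, at 37 °C and in naive libraries. Itpr2 then held 26.1%, 27.0% and 28.9%, and Itpr1 18.4%, 16.6% and 15.6%. The joint level of the IP3 receptor genes by joined exons was 24.7 ± 3.03 CPM per kilobase at 39 °C, 30.3 ± 2.42 at 37 °C and 42.3 ± 11 in naive libraries (SD, n = 3). For the ratio of Itpr2 to Itpr3 the log2 differences were -0.14 for 39 °C against naive (exact permutation p = 0.8), -0.12 for 37 °C against naive (exact p = 0.9) and -0.02 for 39 °C against 37 °C (exact p = 0.4). For Itpr1 to Itpr3 they were 0.24 for 39 °C against naive and 0.18 for 39 °C against 37 °C, each without overlap (exact permutation p = 0.1, adjusted 0.171), and 0.06 for 37 °C against naive (exact p = 0.8).

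Within each of naive libraries 1 and 2, 39 °C libraries 1 and 3 and 37 °C libraries 2 and 3, the receptor genes deviated in the same direction. Naive library 1 lay below its group mean by a log2 value of -0.36 for Itpr1, -0.24 for Itpr2 and -0.55 for Itpr3, and above it by 0.27 for Orai1 and 0.25 for Orai3. Naive library 2 did the reverse, with 0.32 for Itpr1, 0.23 for Itpr2, 0.36 for Itpr3, -0.29 for Orai1 and -0.26 for Orai3. At 39 °C, library 1 was low for the 3 receptor genes (-0.20 for Itpr1, -0.20 for Itpr2 and -0.18 for Itpr3), and library 3 was high (0.19, 0.16 and 0.16 for the same genes). The 37 °C libraries did not repeat this pattern in full. Library 1 there had -0.119 for Itpr1, -0.012 for Itpr2 and 0.015 for Itpr3, and Orai3 ran with the receptor genes in library 2 (0.23) and library 3 (-0.22). Transcript length moved with the deviations in naive libraries 1 and 2 and 39 °C libraries 1 and 3. It also moved with those of the receptor genes in 37 °C libraries 2 and 3. In naive library 3 it did not, since Itpr1, Itpr2 and Itpr3 had 0.043, 0.017 and 0.197 and the long genes a median of -0.015. In 39 °C library 2 the same receptor genes had 0.009, 0.041 and 0.019 and the long genes -0.003. The median deviation of 531 genes with a longest transcript of at least 8000 bases was -0.20 in naive library 1 and 0.21 in naive library 2, and -0.13 in 39 °C library 1 and 0.13 in 39 °C library 3. That of 2843 genes with a longest transcript of at most 2500 bases was 0.17 in naive library 1 and -0.16 in naive library 2. In 37 °C library 2 the long genes had a median of 0.096, and Itpr1, Itpr2 and Itpr3 had 0.219, 0.109 and 0.104. In 37 °C library 3 the long genes had -0.068, and the same receptor genes had -0.101, -0.097 and -0.119. The longest transcripts are 9870 bases for Itpr1, 11679 for Itpr2 and 8990 for Itpr3, against 1875 for Orai1 and 2141 for Orai3. Between groups the long genes had a median log2 fold change of 0.10 at 39 °C against naive, 0.20 at 37 °C against naive and -0.10 at 39 °C against 37 °C, and the short genes one of -0.08, -0.14 and 0.07 in the same comparisons. When the trend with length was removed from each library, an alternative chosen after seeing the data, the 37 °C against naive log2 fold changes were -0.57 for Itpr1 (adjusted p = 4.09e-05), -0.76 for Itpr2 and -0.63 for Itpr3 (adjusted p = 0.000279). This removal also takes out any difference between groups that follows length. The edgeR p-values take no account of the estimation of the trend.

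**Figure D3:**
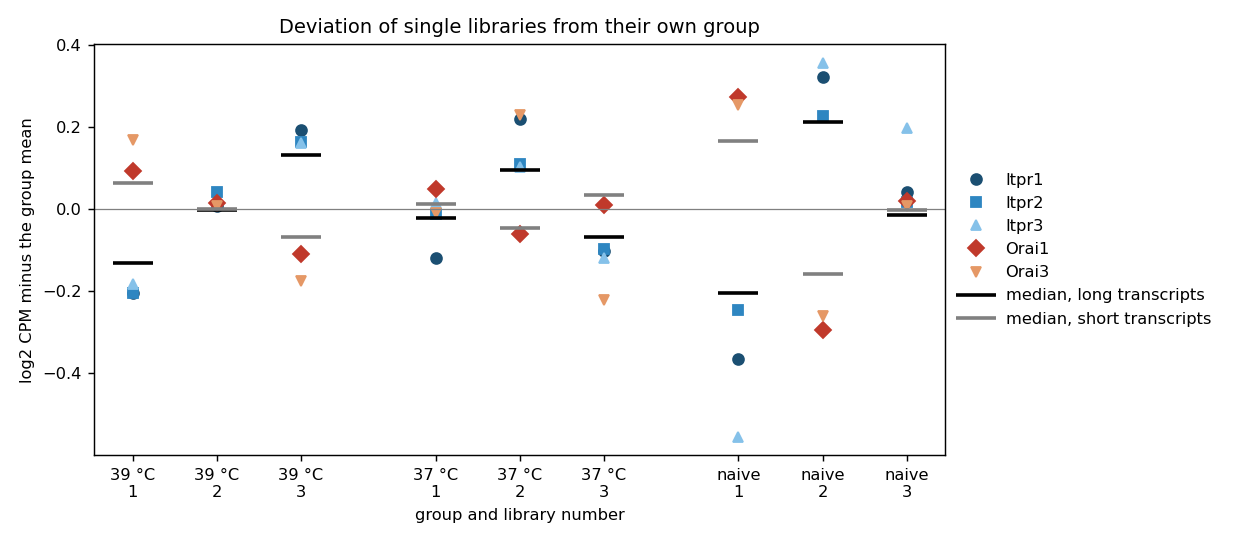
Deviation of single libraries from their group mean in log2 CPM (vertical axis) for the IP3 receptor genes, Orai1 and Orai3 (symbols), with the median of genes with long and with short transcripts (black and grey bars), for libraries 1 to 3 at 39 °C, at 37 °C and in the naive group. In naive library 1 the receptor genes lay at -0.24 or below and Orai1 and Orai3 at 0.25 or above.

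Over the set, 2 of 8 genes rose (Orai1 and Stim2) and 6 fell at 39 °C against naive, where 29.2% of all tested genes were called higher and 29.8% lower. At 37 °C against naive 2 rose, 5 fell and Itpr1 was not called, where 30.9% of all tested genes were called higher and 31.8% lower. Libraries did not overlap for 6 of 8 genes at 39 °C against naive, all but Orai3 and Itpr1, where this held for 61.3% of tested genes, and for 5 of 8 at 37 °C against naive, all but Orai3, Itpr1 and Itpr3, where it held for 65.4%. The count of genes that rose and the counts without overlap were near these backgrounds, and the median log2 fold change of the 8 genes was -0.47 at 39 °C and -0.39 at 37 °C, against -0.00 over all tested genes in both comparisons. Both comparisons use the same naive libraries, so their values stand side by side here and were not set against each other.

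A febrile incubator temperature was set against the usual one in the comparison between 39 °C and 37 °C, with the same activation in both. None of the 8 genes was called in the edgeR fit, in which 0.758% of tested genes were called, 0.135% higher and 0.623% lower, and none was called by DESeq2. At an unadjusted p under 0.05 there were 2 of 8, Orai2 and Itpr2, where 7.96% of tested genes passed that level. Libraries did not overlap for 5 of 8 genes, with Orai1 and Orai2 higher and Stim1, Itpr2 and Itpr3 lower at 39 °C, where this held for 20.9% of tested genes.

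The log2 differences of the 8 genes, none called in the fit of 9 libraries, ran from -0.33 for Itpr2 to 0.21 for Orai2. Orai2 had a log2 difference of 0.21 ± 0.07, with a 95% interval from 0.05 to 0.36 (adjusted p = 0.394). Itpr2 had one of -0.33 ± 0.12, with an interval from -0.60 to -0.07 (adjusted p = 0.453), and Itpr3 one of -0.31 ± 0.18, from -0.72 to 0.09. The intervals ran from -0.08 to 0.42 for Orai1 (0.17), from -0.31 to 0.37 for Orai3 (0.03), from -0.31 to 0.07 for Stim1 (-0.12), from -0.11 to 0.16 for Stim2 (0.02) and from -0.49 to 0.22 for Itpr1 (-0.13). For each of the 8 genes the interval leaves out a 2-fold change in either direction. Fitted on the 6 activated libraries alone, Orai2 (adjusted p = 0.0319), Itpr2 (adjusted p = 0.0396) and Itpr3 (adjusted p = 0.0445) passed, with log2 differences of 0.21, -0.34 and -0.32. In the fit without naive library 1 Orai2 passed as well (0.21, adjusted p = 0.0452). Both of these fits also called more of all genes, higher and lower, than the fit of 9 libraries, whose share is therefore not their background. Their counts over all genes are given in the last section. With the length trend removed the differences were -0.22 for Itpr2, -0.23 for Itpr3 and -0.04 for Itpr1, and 0 of 8 passed.

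**Figure D4:**
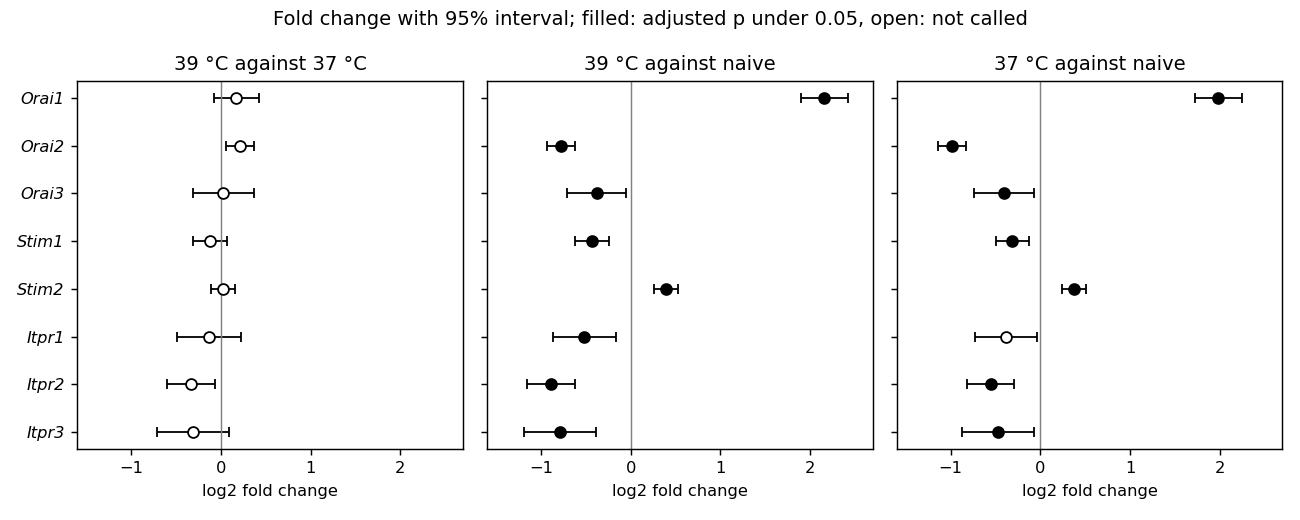
Log2 fold change (horizontal axis) with 95% interval for each gene in the 3 comparisons, 39 °C against 37 °C, 39 °C against naive and 37 °C against naive; filled points passed the test at an adjusted p under 0.05. Orai1 stands at 2.16 and 1.99 against naive, and no point is filled between 39 °C and 37 °C.

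In order of level per kilobase, 39 °C libraries ran Orai1 (116), Orai2 (27.6), Itpr3 (15.9), Stim2 (13.9), Stim1 (12.1), Orai3 (8.12), Itpr2 (5.92) and Itpr1 (2.86 CPM per kilobase). Only the neighbours Itpr3 and Stim2 overlapped in their library ranges. The order at 37 °C was the same, from 103 CPM per kilobase for Orai1 to 3.13 for Itpr1, with overlap between Stim2 (13.7) and Stim1 (13.1) and between Orai3 (7.96) and Itpr2 (7.46). In naive libraries Orai2 (47.3) came first, before Itpr3 (27.3), Orai1 (26.1), Stim1 (16.3), Itpr2 (10.9), Stim2 (10.6), Orai3 (10.6) and Itpr1 (4.09 CPM per kilobase). There Itpr3 overlapped with Orai1, Itpr2 with Stim2 and Stim2 with Orai3. With the longest transcript as the length, mean levels put Stim1 behind only Orai1 and Orai2 in activated libraries and behind only Orai2 in naive libraries. Itpr1 stayed last by the mean in all groups. In naive libraries Stim1 overlapped with Orai1 and exceeded it in 2 of 3, and Orai3 overlapped with Itpr1 and exceeded it in 2 of 3. Annotated genes that share exon bases with a member had at most 10 counts over all 9 libraries, against 8107 to 25039 for the members they overlap.

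The rest of the calcium pathway was read from 7 lists of 86 genes, of which 77 were tested. At 39 °C against naive 23 rose, 31 fell and 23 were not called, where 29.2% of all tested genes rose and 29.8% fell. At 37 °C against naive 28 rose, 31 fell and 18 were not called, where 30.9% of all tested genes rose and 31.8% fell. These shares over all genes also stand behind the count of each list below. Up to 3 genes per list that rose and 3 that fell at 37 °C are named below, chosen by adjusted p, with the log2 fold change and SE for 39 °C against naive first and for 37 °C against naive second. Every value given passed the edgeR test unless it is said not to have passed.

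Among 7 tested regulators of store-operated entry 0 rose and 6 fell at 39 °C, with a median of -0.68, and 1 rose and 6 fell at 37 °C, with a median of -0.57. Cracr2a, a calcium-binding partner of ORAI1 and STIM1 described in human T cells, had -1.35 ± 0.14 and -1.27 ± 0.14. Esyt1, a tether between the endoplasmic reticulum and the plasma membrane, had -0.95 ± 0.07 and -1.18 ± 0.07, and Saraf, which promotes the slow inactivation of store-operated channels, had -0.85 ± 0.09 and -0.83 ± 0.09. Esyt2, a tether of the same family, had 0.17 ± 0.08 at 39 °C, which passed only without naive library 2 (0.22), and 0.19 ± 0.08 at 37 °C, a call lost in 10 of 18 alternatives, among them upper-quartile scaling (0.06) and the fits without 39 °C library 2 (0.20), 37 °C library 1 (0.22), 2 (0.17) or 3 (0.21) or naive library 3 (0.16). Cracr2b and Tmem178 were below the count filter.

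Of 11 genes between the T cell receptor and IP3, 3 rose and 5 fell at 39 °C and 4 rose and 5 fell at 37 °C. Lcp2, which encodes the adaptor SLP-76, had 1.86 ± 0.07 and 1.61 ± 0.07, and the kinase gene Zap70 had 1.27 ± 0.08 and 1.24 ± 0.08. The Tec family kinase genes Txk and Tec fell, with -1.31 ± 0.06 and -1.36 ± 0.06 for Txk and -1.13 ± 0.12 and -1.18 ± 0.12 for Tec. Grap2, the gene of the adaptor GADS, had -1.11 ± 0.11 and -1.03 ± 0.11.

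The list of IP3 metabolism and IP3 receptor partners held 23 tested genes, with 9 higher and 7 lower at 39 °C and 10 higher and 7 lower at 37 °C, and Itpka and Itprid1 below the filter. Ahcyl1 and Ahcyl2 encode IRBIT proteins, of which the first competes with IP3 for the receptor. Ahcyl1 had 0.70 ± 0.06 and 0.72 ± 0.06, and Ahcyl2 had 0.96 ± 0.08 and 1.33 ± 0.08. Erlin1, part of a complex that directs activated IP3 receptors to degradation, had 1.09 ± 0.12 and 1.19 ± 0.12. The phosphatase gene Inpp1 had -1.16 ± 0.07 and -1.22 ± 0.07, Grina had -1.06 ± 0.10 and -1.11 ± 0.10, and Mrvi1, which encodes an IP3 receptor-associated substrate of cyclic GMP kinase, had -1.79 ± 0.22 and -2.56 ± 0.25.

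Calcium pump genes moved in both directions. Of 10 tested genes of pumps, ryanodine receptors and store proteins 5 rose and 3 fell at 39 °C and 5 rose and 2 fell at 37 °C, with Atp2b2, Atp2b3, Ryr2 and Slc8a1 below the filter. Without naive library 1 the number that fell was 5 in both comparisons, and at 37 °C it was 4 with upper-quartile scaling, with any gene with a count kept or with the length trend removed. Atp2a2, which encodes the store pump SERCA2, had 0.91 ± 0.07 and 1.06 ± 0.07, while Atp2a3, the gene of SERCA3, had -1.44 ± 0.11 and -1.69 ± 0.11. The plasma membrane pump genes Atp2b1 (0.79 ± 0.10 and 0.91 ± 0.10) and Atp2b4 (1.25 ± 0.16 and 1.48 ± 0.16) rose, and Tmco1, a calcium leak channel gene of the endoplasmic reticulum, had -0.62 ± 0.12 and -0.88 ± 0.12.

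Of 10 genes of mitochondrial calcium uptake, 3 rose and 4 fell in each comparison with naive, but at 39 °C 1 rose without 39 °C library 1 or with upper-quartile scaling, and 2 fell without 39 °C library 3. Mcu, the uniporter pore, had 0.52 ± 0.08 and 0.38 ± 0.08, and Letm1 had 0.25 ± 0.08 in both. Micu2 had -0.59 ± 0.07 and -0.81 ± 0.07, Smdt1, an essential uniporter subunit, had -0.39 ± 0.11 and -0.64 ± 0.12, and the mitochondrial sodium-calcium exchanger gene Slc8b1 had -0.62 ± 0.15 and -0.79 ± 0.15. Single 39 °C libraries carried some calls at 39 °C, where Letm1 was lost without library 1 (0.21) and Smdt1 without library 3 (-0.35). With upper-quartile scaling Letm1 was not called, at 0.12 in both comparisons.

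Among 7 tested potassium, purinergic and other channel genes 2 rose and 3 fell at 39 °C and 3 rose and 3 fell at 37 °C. P2rx7, an ATP-gated channel gene, had the largest fall of the named genes, -2.70 ± 0.12 and -2.58 ± 0.11. P2rx4 had 0.48 ± 0.07 and 0.28 ± 0.07, where the value at 37 °C was not called with upper-quartile scaling (0.15), and the mechanosensitive channel gene Piezo1 had 1.09 ± 0.28 and 1.57 ± 0.29. Kcna3, the gene of the voltage-gated potassium channel Kv1.3, had 1.10 ± 0.46 at 39 °C, which did not pass (adjusted p = 0.0564) but did in 5 of 18 alternatives, without 39 °C library 1 (1.34) and without naive library 2 (1.67, adjusted p = 0.00475) among them. At 37 °C it had 1.45 ± 0.45, a call lost without 37 °C library 2 (1.17). Kcnn4, the gene of the calcium-activated potassium channel KCa3.1, had -0.60 ± 0.08 and -0.57 ± 0.08, and the volume-regulated anion channel gene Lrrc8a had -0.97 ± 0.19 and -0.92 ± 0.19. P2rx1 was below the filter.

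Of 9 calmodulin and calmodulin kinase genes 1 rose and 3 fell at 39 °C and 2 rose and 4 fell at 37 °C. At 39 °C 5 fell without naive library 2 and 6 with upper-quartile scaling. Camkk2 had 0.92 ± 0.09 and 0.93 ± 0.09. Camkk1 had 0.07 ± 0.13 at 39 °C, which did not pass, and 0.38 ± 0.13 at 37 °C, a call lost without 37 °C library 1 (0.37) or 2 (0.37) or naive library 1 (0.26) and with upper-quartile scaling (0.24). Camk2g had -1.35 ± 0.08 in both comparisons and Camk1d -0.64 ± 0.08 and -0.65 ± 0.08. Calm3, 1 of 3 genes for the same calmodulin protein, had -0.25 ± 0.07 and -0.37 ± 0.07, and its call at 39 °C was lost without 39 °C library 2 (-0.24) or 3 (-0.22) or naive library 3 (-0.20).

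Between 39 °C and 37 °C the edgeR fit called 0 of the 77 list genes, 13 had an unadjusted p under 0.05, and DESeq2 called 2, which are named here after their values were seen. Over all tested genes the edgeR fit of 9 libraries called 0.758%, and 7.96% had an unadjusted p under 0.05. The genes called by DESeq2 were Lcp2, with a log2 difference of 0.25 ± 0.07 in the edgeR fit (adjusted p = 0.188, and 0.00324 by DESeq2), and Ahcyl2, with -0.37 ± 0.08 (adjusted p = 0.0536, and 0.00333 by DESeq2). The fit of the 6 activated libraries called 7 list genes, 4 higher and 3 lower, which were Lcp2 (0.24, adjusted p = 0.0106), Esyt1 (0.22), Bcl2 (0.20), Atp2a3 (0.25), Ahcyl2 (-0.37, adjusted p = 0.000535), Atp2c1 (-0.22) and Piezo1 (-0.49). In the fit without naive library 1, 5 of these passed, Lcp2 (0.25), Esyt1 (0.23), Atp2a3 (0.25), Ahcyl2 (-0.37) and Piezo1 (-0.48). With any gene with a count kept, Ahcyl2 (-0.36) and Piezo1 (-0.48, adjusted p = 2.24e-05) passed, and Ahcyl2 also passed without naive library 2 (-0.37) and with the length trend removed (-0.34). Keeping any gene with a count gave much smaller p-values for some genes at nearly unchanged fold changes. With the count filter used elsewhere Piezo1 had -0.48 and an adjusted p of 0.750 by edgeR, so passes without that filter weigh less. Genes in these fits were likewise named after their values were seen. The 0.758% is not the background of these fits. The 6-library fit and the fit without naive library 1 called more of all genes, as did keeping any gene with a count and removing the length trend. DESeq2 called more of all genes higher. The counts over all genes are given in the last section, except the count that DESeq2 called lower. The DESeq2 call of Ahcyl2 therefore stands here without its background.

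**Figure D5:**
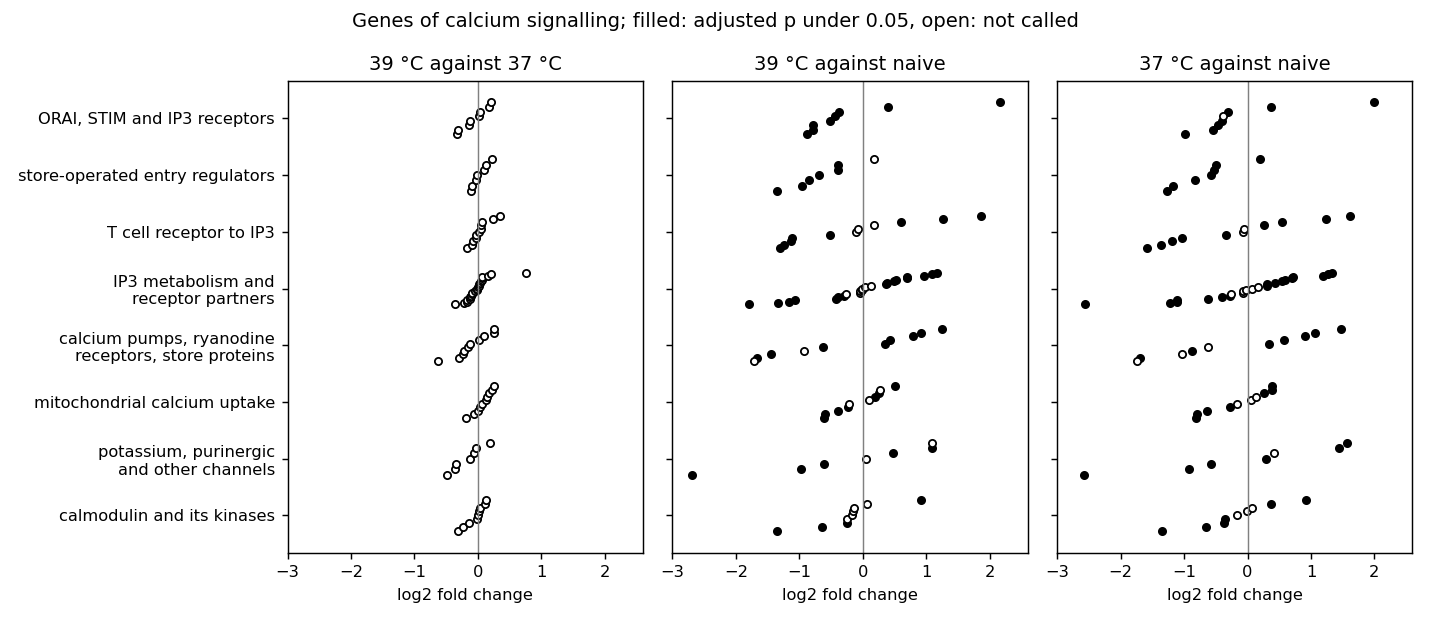
Log2 fold change (horizontal axis) of each tested gene of the 8 ORAI, STIM and IP3 receptor genes and of the 7 lists (rows), for 39 °C against 37 °C, 39 °C against naive and 37 °C against naive; filled points passed the test at an adjusted p under 0.05, and points of a row are offset vertically by rank. Against naive each list holds filled points on both sides of 0 except the regulators of store-operated entry at 39 °C, and between 39 °C and 37 °C no point is filled.

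Genes with the most similar profile were looked for among 8998 genes that averaged 5 CPM or more, as the smallest root mean square difference of log2 CPM over the 9 libraries after each profile was centred on its mean. These 9 libraries fall into 3 groups, so likeness mostly reflects the group means. Orai1 was nearest to the tubulin gene Tuba1c (0.0799) and to Itm2a (0.0873), and Orai2 to the adhesion receptor gene Adgre5 (0.0637) and to Rassf2 (0.0642). Orai3 was nearest to Dpp7 (0.0916) and Tmem230 (0.0943). Stim1 was nearest to Fbxo21 (0.0376) and Pip4k2b (0.0453), and Stim2 to the chromatin protein gene Rbbp4 (0.0254) and to Cand1 (0.0281), the closest likeness of the set. Itpr1 was nearest to Rapgef2 (0.0632) and Lrba (0.0651), Itpr2 to Zmiz1 (0.0704) and Lpp (0.0809), and Itpr3 to Sipa1l1 (0.0830) and to the plectin gene Plec (0.101).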

How the data were processed

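RNA-seq libraries of mouse splenic CD4+ T cells were grouped by their treatment labels, with 3 libraries each at 39 °C, at 37 °C and naive. Per the labels' protocols, total RNA was extracted with TRIzol and prepared with the TruSeq RNA Sample Prep Kit v2. The deposited values are raw counts per gene, 1 table per library, not normalized. Tools listed in the submitters' processing notes, without versions or roles, are HISAT2, HTSeq, FastQC and DESeq2, with the build GRCm38, and the counter of these tables and its strand setting are not given in the sources used here. The members and lists were chosen with earlier results of these data known.

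GENCODE M21 gave names, lengths and GRCm38 coordinates for 55480 of 55573 identifiers. RefSeq (GRCm38.p6) gave promoters for 7 of the 8 members. Genes passing filterByExpr (minimum count 10, total 15) were fitted with edgeR 4.0.16 (R 4.3.3; TMM, quasi-likelihood F test, 2-sided, 1 fit of 9 libraries), adjusted by Benjamini-Hochberg over 13328 genes at 0.05. SE was the fold change over the root of F. Scripts were tested on simulated data. Ratios within families used exact permutation tests. Totals of 12647692 to 17605549 counts set the precision, and the small number of libraries limits it. Replicate pairs differed beyond sampling noise (chi-square per degree of freedom 2.14 to 43.6), so none was counted as a duplicate. The largest values were those of naive library 1 against naive libraries 2 and 3. Named besides the members are, per list, up to 3 genes called in each direction at 37 °C against naive by adjusted p, every list gene called at 39 °C against 37 °C, and the 2 genes most like each member, passing over predicted models. Some items that this rule covers are not reported here. Alternatives were other scalings (RLE, upper quartile, library size only), other filters, DESeq2 1.42.0, a 6-library fit, a replicate block, leaving out each library and removal of the length trend in each library (lowess span 0.3).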

Additional observations from a re-analysis of the deposited data

How the results depend on the processing

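Orai1, Orai2, Stim1, Stim2 and Itpr2 kept their direction and their call against naive, at 39 °C and at 37 °C, in all 18 alternatives, and 2 members were called higher in each of them. At 37 °C against naive the 5 members called lower became 6 with DESeq2, upper-quartile scaling, any gene with a count or the length trend removed, 4 in the 6-library fit and 3 to 6 when single libraries were left out, with 3 without 39 °C library 2, 37 °C library 1 or 3, or naive library 3. At 39 °C against naive the 6 became 5 to 6. Between 39 °C and 37 °C, where 0 members were called, the 6-library fit called 1 higher and 2 lower and the filter keeping any gene with a count called 1 lower (Itpr2, -0.33, adjusted p = 0.0375). That pass weighs less, since keeping any gene with a count gave much smaller p-values for some genes at nearly unchanged fold changes. Itpr2 had the same -0.33 and an adjusted p of 0.453 by edgeR with the count filter used elsewhere. Leaving out single libraries gave 0 to 1 higher. Over all genes, 18 higher and 83 lower became 136 and 265 in the 6-library fit, 43 and 133 with any gene with a count, 39 higher with DESeq2, 40 and 130 with the length trend removed, and 7 to 89 higher and 30 to 202 lower when single libraries were left out, the largest without naive library 1 (89 and 202). Libraries with the same number did not deviate together throughout. Correlations of their deviations ran from -0.171 to 0.33, over 0.1 in 2 of 9 pairs (0.33 for 39 °C and naive library 1, 0.293 for 37 °C and naive library 2), so the numbers were not taken as a pairing. With it, 2 members were higher and 6 lower in each comparison with naive, Itpr1 at 37 °C included (-0.37, adjusted p = 0.00912), and 0 were called between 39 °C and 37 °C (all genes 16 higher and 81 lower). Directions reversed for Orai3 between 39 °C and 37 °C (0.027) with the length trend removed (-0.010), and leaving out single libraries gave -0.076 to 0.16, negative without 39 °C library 1 or 37 °C library 3. They also reversed for Camkk1 at 39 °C against naive with upper-quartile scaling (-0.060), with -0.044 to 0.19 when single libraries were left out, negative without naive library 1. Leaving out single libraries moved the log2 ratio differences of Orai1 to Orai2 between 39 °C and 37 °C (-0.10 to 0.016), of Itpr1 to Itpr3 at 37 °C against naive (-0.020 to 0.15) and of Itpr2 to Itpr3 at 39 °C (-0.23 to 0.013) and 37 °C (-0.21 to 0.034) across 0. The cause was not tested. Upper-quartile scaling moved the median of all genes by -0.13 in both comparisons with naive. The 6-library fit also ended the call of Orai3 at 39 °C (-0.36) and of Itpr3 at 37 °C (-0.46) against naive. Of 38 pathway genes that the naming rule covers, 31 at 39 °C and 33 at 37 °C kept their call against naive in all 18 alternatives. The call was lost in some alternative for 4 at 39 °C and 5 at 37 °C. Esyt2, Kcna3 and Camkk1 had no call at 39 °C to keep. The least counted member, Orai3, had 186 to 399 counts per library, and its reads carry no molecular identifiers, so counting them does not count molecules.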
